A study of Homo sapiens with 6 samples.

Results

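Heat shock proteins and chaperonins were taken as the protein-coding genes of the count table whose symbols belong to the HSPA, HSPB, HSPD, HSPE, HSPH, HSP90, DNAJA, DNAJB, DNAJC and CCT families, together with *TCP1* and *TRAP1*, while the BAG co-chaperones were left out. This rule gave 81 of 67060 genes. They were placed by the known site of their proteins into the cytosol and nucleus (41 genes), the CCT chaperonin (9), the endoplasmic reticulum (ER, 13) and mitochondria (9), and 9 were not assigned. Of the 81 genes, 68 had enough counts to be tested, among 24500 tested genes in all.

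The cells were SH-SY5Y, a cloned human neuroblastoma line that the labels call a neuronal progenitor. They were infected for 24 h with Ad CMV 3xFlag-*Esrrg*, an adenovirus that carries the mouse coding sequence of the nuclear receptor ERRγ behind the CMV promoter, or with the control virus Ad CMV GFP. Each group had 3 libraries (replicates 2, 3 and 4 for *Esrrg* and 1, 3 and 4 for GFP) of total RNA depleted of ribosomal RNA. All 6 libraries therefore came from infected cells, the sources used here give neither the share of cells that took up virus nor whether the replicates were separate cultures, and p-values measure only the spread between these samples.

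Chaperones bind unfolded or partly folded proteins and let them reach their folded form. HSP70 proteins (HSPA) bind and release short hydrophobic stretches in a cycle driven by ATP, J-domain proteins (DNAJ) bring substrates and trigger ATP hydrolysis, nucleotide exchange factors such as HSPH1 reset the cycle, and HSP90 acts later on signalling proteins. Small heat shock proteins (HSPB) hold aggregation-prone proteins without ATP, while the ring-shaped chaperonins, CCT in the cytosol and HSP60 with its lid HSP10 in mitochondria, enclose a substrate. The heat shock response, driven by HSF1, and the unfolded protein responses of the ER and of mitochondria each raise a partly separate set of these genes in stressed cells.

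Gene counts ranged from 24969759 to 29700980 per GFP library and from 26513620 to 40859666 per *Esrrg* library. Reads assigned to no gene were 51.3 to 52.2% of the reads in the GFP libraries but 46.6, 31.6 and 29.5% in *Esrrg* replicates 2, 3 and 4, so this share was lower in every *Esrrg* library and replicate 2 stood nearer to the GFP libraries. The gene *ESRRG* was at 83.5, 90.3 and 86.8 CPM (counts per 1000000 counts) in the GFP libraries and 569, 771 and 777 CPM in the *Esrrg* libraries, and counts from the viral mouse sequence and from the human gene cannot be told apart. A gene was called when edgeR's quasi-likelihood test gave a Benjamini-Hochberg adjusted p below 0.05 and the fold change was at least 1.5. Of 10 adrenergic neuroblastoma markers, 8 were tested (*TH* and *CHGA* were at 0 counts), and their summed level was 801 to 853 CPM with GFP and 590 to 779 CPM with *Esrrg*. All 8 mesenchymal markers were tested and summed to 6414 to 6518 and 6939 to 7272 CPM, with 0 called higher by edgeR or DESeq2 (at an unadjusted p under 0.05 in edgeR, *FN1* alone was higher) and *YAP1* called lower by edgeR but not by DESeq2. The adjusted p of *FN1* was 0.0079 in edgeR and that of *YAP1* was 3.9e-06 in DESeq2, so both missed these calls on the size of the fold and not on the p. *FN1* went from 1954 to 2687 CPM on average, while *COL3A1* was at 2598 and 2533 CPM. In the adrenergic list *PHOX2A* was called higher (0.81 on the log2 scale) and *DBH* and *STMN2* lower (-2.64 and -0.68), and the part of these shifts in the results was not tested.

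More chaperone genes were higher than lower with *Esrrg*, and of the 4 sites the mitochondrial chaperones had the highest median change. All but 1 of the tested mitochondrial genes rose, among them the matrix HSP70 *HSPA9*, the HSP90 *TRAP1* and both genes of the HSP60 chaperonin. By this rule of a call, 27 of the 68 tested chaperone genes rose and 2 fell, with 39.7% called higher, against 25.9% called higher and 12.4% called lower among the 13746 tested protein-coding genes (17.3% and 16.8% among all tested genes). With library size as the only scaling the split was 14 higher and 8 lower. The median log2 fold change over all tested genes was -0.10 in the TMM-scaled fit and -0.42 in that scaling. The median log2 fold change of the chaperone genes was 0.53, beside 0.12 for the protein-coding genes in the same fit. In these bulk libraries, a change in the number of cells that express a gene and a change in the RNA per cell cannot be told apart.

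By site, 7 of 8 tested mitochondrial genes rose (median log2 fold change 1.10), as did 4 of 9 chaperonin genes (0.54), 4 of 13 ER genes (0.44), 11 of 33 cytosolic and nuclear genes (0.31, but -0.01 with library size as the only scaling) and 1 of 5 unassigned genes. The 2 genes that fell were *DNAJC13* in the cytosolic group and *CCT6B* in the chaperonin group. Without the fold cutoff, 40 chaperone genes passed the adjusted p upward and 7 downward, beside 37.6% and 22.4% of the protein-coding genes. The lowest *Esrrg* library lay above the highest GFP library, or the reverse, for 55 of the 68 genes, and 70.3% of the protein-coding genes separated in the same way. All chaperone genes together took 0.809 to 0.898% of the normalized counts in the GFP libraries and 1.13 to 1.52% in the *Esrrg* libraries, with replicate 2 the lowest.

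*Esrrg* replicate 2 was the lowest of the 3 *Esrrg* libraries for 26 of the 27 genes that rose, and without it 37 genes were called higher and 2 lower. When the share of reads assigned to no gene entered the fit as a covariate, edgeR called 8 chaperone genes higher (3 cytosolic, 0 chaperonin, 1 ER and 4 mitochondrial), beside 9.48% of the protein-coding genes. At an unadjusted p under 0.05, 29 chaperone genes were higher in that fit, 4 of them chaperonin genes, and 2 were lower. The genes that rose had a median GC content of 48.5%, against 41.4% for the other tested chaperone genes. After correction of each library for GC content and exon length, 31 genes were called higher (12, 6, 5 and 8 by the same sites), beside 20.2% of the protein-coding genes. Calls lost by this correction were those of *DNAJC5*, *HSPA12B*, *DNAJB12*, *DNAJC14* and *DNAJC4*, and calls gained were those of *DNAJC6*, *HSPA4*, *HSPH1*, *TCP1*, *CCT4*, *DNAJB11*, *DNAJB9*, *HSP90B1* and *DNAJC19*. Among the genes called in the main test but not with the covariate, the log2 fold change in the latter ran from 0.02 for *DNAJC8* to 0.56 for *CCT3*. The genes called higher in the main test and in every alternative apart from a 2-fold cutoff were *HSPB7*, *HSPA5*, *HSPE1*, *TRAP1*, *HSPA9* and *DNAJC11*.

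**Figure D1:**
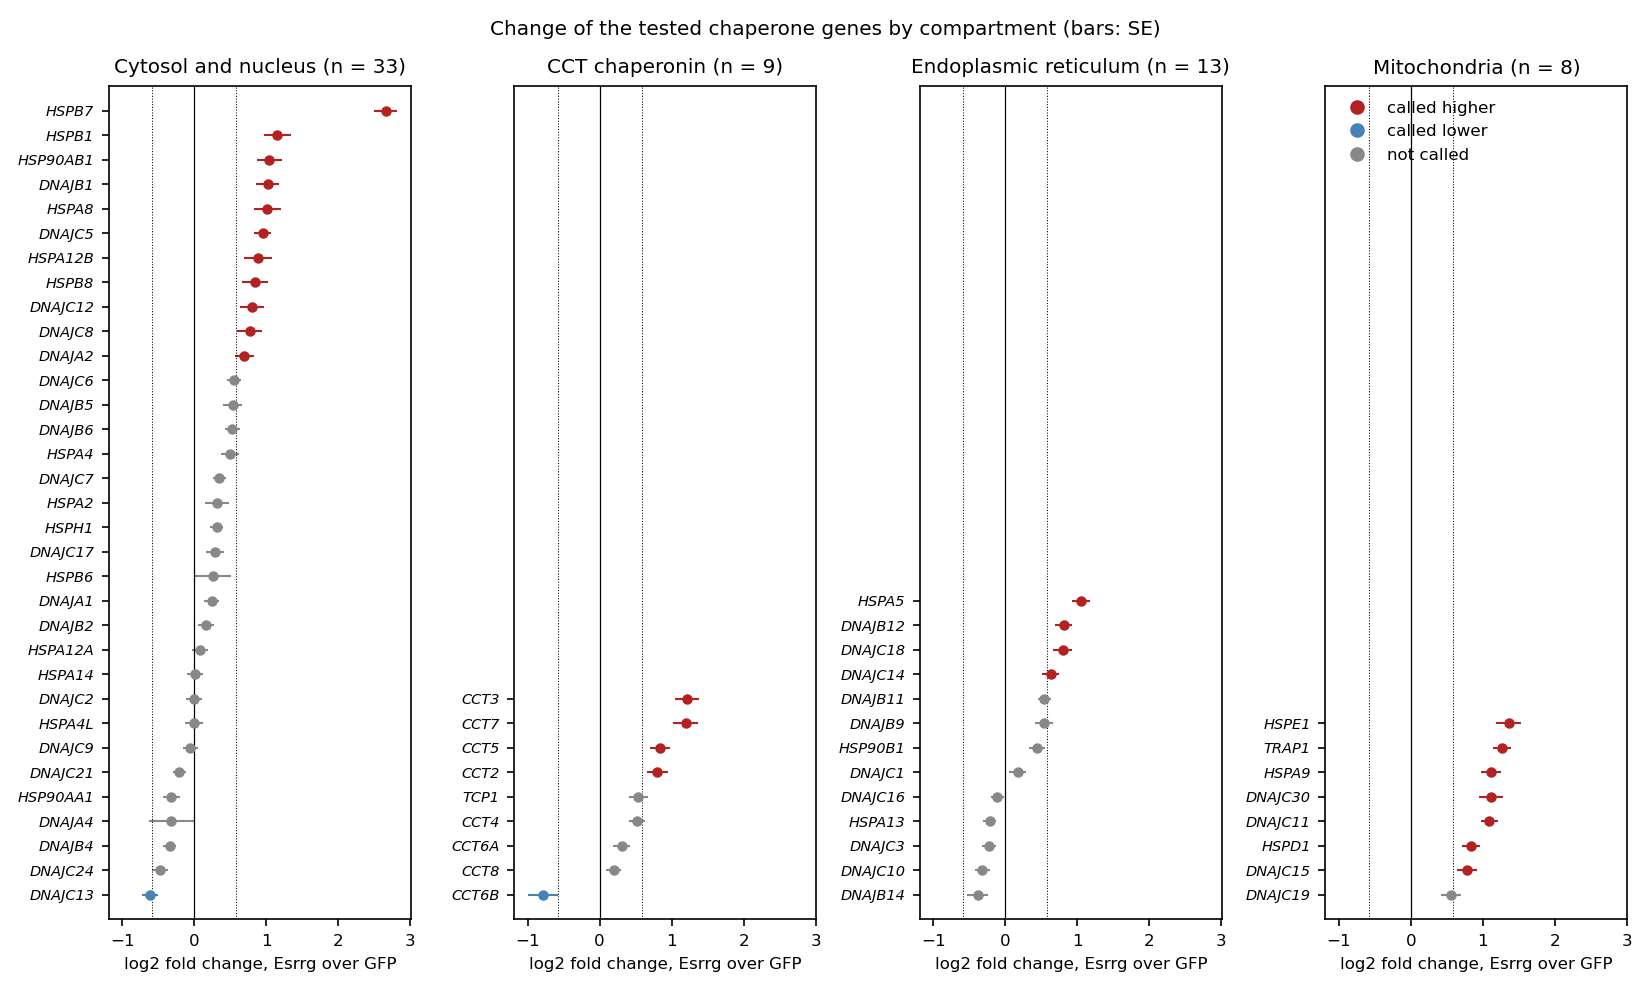
Log2 fold change (*Esrrg* over GFP, x axis) of each tested chaperone gene with its SE as a bar, in 1 panel per site. Dotted lines mark a 1.5-fold change. In the mitochondrial panel all 8 points lie above 0.5, while the cytosolic panel runs from -0.62 for *DNAJC13* to 2.66 for *HSPB7*.

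The cytosolic HSP70 machinery rose at its main member. *HSPA8* (ENSG00000109971.14, GRCh38 chr11:123057489-123063230, minus strand) encodes HSC70, the HSP70 that cells make without stress. It was at 864, 1057 and 972 CPM in GFP replicates 1, 3 and 4 and at 1386, 2273 and 2200.1 CPM in *Esrrg* replicates 2, 3 and 4. Every *Esrrg* library was above every GFP library, with replicate 2 the closest to them. The log2 fold change was 1.02 ± 0.18 (SE), edgeR adjusted p = 0.00125, and 0.31 with the no-gene share as covariate, where it was not called. *DNAJB1*, the heat-inducible J-domain partner of HSP70, went from 67.0 ± 7.09 to 136 ± 29.8 CPM (mean ± SD, n = 3 each), a log2 fold change of 1.02 ± 0.16 (SE), edgeR adjusted p = 0.000493. *DNAJA2*, a J-domain protein of the same cycle, rose by 0.70 on the log2 scale. The groups did not overlap for either of these genes. *DNAJA1*, close in sequence and role to *DNAJA2*, had a log2 fold change of 0.24 ± 0.11 (SE), edgeR adjusted p = 0.0865, and did not pass. *HSPH1* and *HSPA4*, exchange factors of the HSP110 type, had log2 fold changes of 0.31 and 0.50, with adjusted p values of 0.0213 and 0.00665 in edgeR but folds under 1.5.

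The stress-inducible HSP70 genes had no usable counts. *HSPA1A*, *HSPA1B* and *HSPA1L* were at 0 counts in all libraries, as were *DNAJA3* and *DNAJC28*. Between 92.8 and 99.0% of the 31-base words of their transcripts also occur on the 261 alternate contigs of GRCh38. Whether the authors' reference held those contigs is not given in the sources used here, so the 0 counts were not read as low expression. *HSPA6*, an HSP70 gene with strict stress dependence, had 0, 0 and 0 counts in the GFP libraries and 3, 5 and 0 counts in the *Esrrg* libraries. Its values lie near the limit that a count of 0 allows, 3 counts or 0.0879 to 0.112 CPM by library, which covers counting error only. *HSPB3*, *HSPB9*, *DNAJB8* and *DNAJB13* had at most 14 counts in any library and were not tested. *HSPB2* and the readthrough genes *HSPB2-C11orf52* and *HSPE1-MOB4* were at 0 counts, and 85.5% or more of their exon bases lie under another gene.

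The promoters of the genes below are shown because the stress pathways named above act through known motifs. Windows from 250 bases before to 50 after the start site were available for 73 of the 81 genes (RefSeq, GRCh38.p14). A heat shock element (GAANNTTCNNGAA, both strands) was present in 4 of these 73 windows, *HSPA8*, *DNAJA1*, *DNAJB6* and *HSPA6*, and in 0.487% of all 27305 windows. The *HSPA8* window held it in 2 places, 230 to 218 and 55 to 43 bases before the start, in capitals here (chr11:123062087-123062386, minus strand):
HSPA8: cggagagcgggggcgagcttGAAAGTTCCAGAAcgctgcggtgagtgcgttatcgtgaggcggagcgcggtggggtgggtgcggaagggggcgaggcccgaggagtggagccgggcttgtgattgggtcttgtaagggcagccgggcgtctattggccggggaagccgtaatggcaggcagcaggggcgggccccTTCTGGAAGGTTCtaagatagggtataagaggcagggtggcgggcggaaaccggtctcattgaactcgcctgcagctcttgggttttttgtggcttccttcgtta
Of these 4 genes *HSPA8* was called higher, *DNAJB6* (log2 fold change 0.53, adjusted p = 0.00227 in edgeR) and *DNAJA1* (0.24) were not, and *HSPA6* was not tested. *DNAJB1*, *HSPB1* and *HSP90AB1*, which were called higher, had no match to these letters in their windows.

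*HSP90AB1* and *HSP90AA1*, the constitutive and the inducible form of cytosolic HSP90, had changes of opposite sign. *HSP90AB1* (ENSG00000096384.20, GRCh38 chr6:44246166-44253888, plus strand) was at 1159, 1399 and 1299 CPM in the GFP libraries and at 2010.2, 2961 and 2994 CPM in the *Esrrg* libraries. *HSP90AA1* (ENSG00000080824.19, GRCh38 chr14:102080742-102139699, minus strand) was at 647, 729.6 and 611 CPM with GFP and 571, 536 and 489 CPM with *Esrrg*. Each *Esrrg* library was thus above the GFP libraries for the first gene and below them for the second. The log2 fold changes were 1.05 ± 0.17 (SE), edgeR adjusted p = 0.000642, and -0.32 ± 0.12 (SE), edgeR adjusted p = 0.043. The second fold stayed under the cutoff except with library size as the only scaling, where *HSP90AA1* was called lower (-0.63). Without *Esrrg* replicate 2 *HSP90AA1* was at -0.26 (edgeR adjusted p = 0.0054). Its change did not pass the adjusted p in DESeq2 (-0.23, DESeq2 adjusted p = 0.13). Nor did it after the GC and length correction (-0.24, edgeR adjusted p = 0.072) or with the covariate (-0.16, edgeR adjusted p = 0.39). Within a library, the ratio of *HSP90AB1* to *HSP90AA1* counts was 1.79, 1.92 and 2.12 with GFP and 3.52, 5.52 and 6.12 with *Esrrg*. The mean ratio went from 1.94 ± 0.17 to 5.05 ± 1.36 (SD, n = 3 each, exact permutation test, two-sided, p = 0.1, 0.12 after Benjamini-Hochberg adjustment over 6 ratios). With 3 libraries against 3, 0.1 is the smallest p this test can give. Per kilobase of exon, *HSP90AB1* had the highest level of all cytosolic chaperone genes in both groups, with 431 and 891 CPM per kb.

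**Figure D2:**
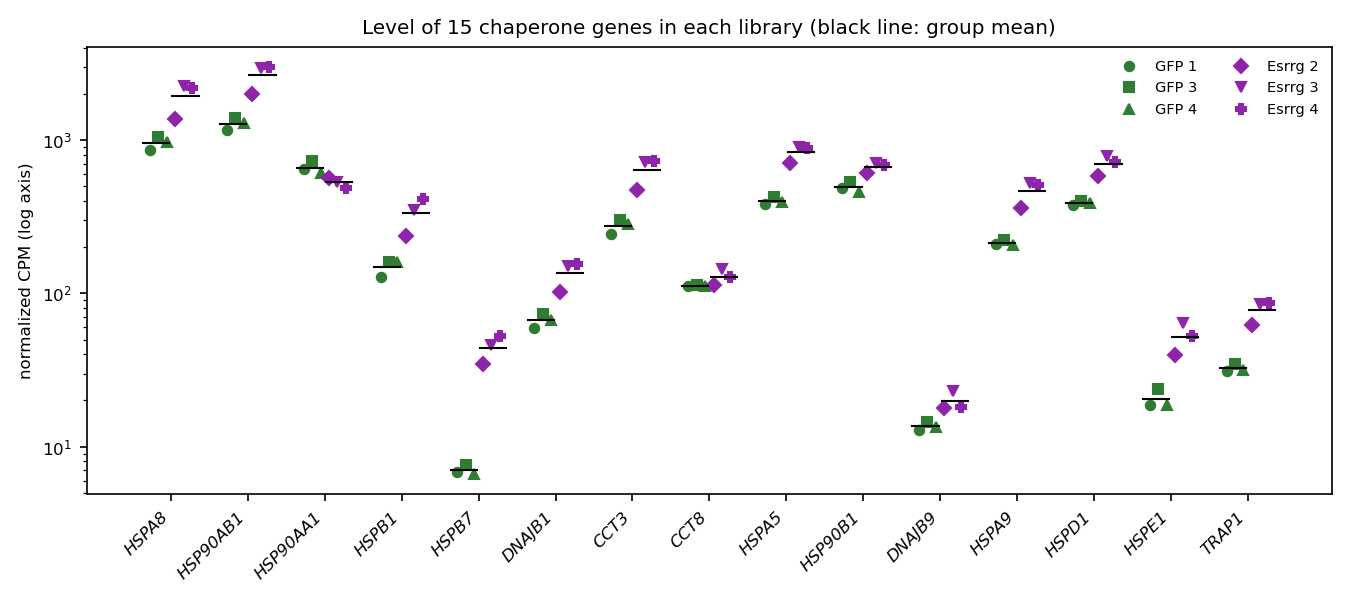
Normalized CPM (log axis) of 15 chaperone genes in each of the 6 libraries, with black lines for the group means. *Esrrg* symbols lie above GFP symbols for every gene shown apart from *HSP90AA1*, where they lie below, and *Esrrg* replicate 2 is the lowest *Esrrg* symbol for most genes.

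Among the small heat shock proteins, *HSPB7*, known from heart and skeletal muscle, had the largest change of all 68 tested chaperone genes. *HSPB7* (ENSG00000173641.18, GRCh38 chr1:16014028-16019594, minus strand) had 193, 234 and 219 counts in the GFP libraries and 920, 1552 and 1791 counts in the *Esrrg* libraries. Its level went from 7.0 ± 0.495 to 44.3 ± 9.19 CPM (mean ± SD, n = 3 each), and the groups lay far apart. The log2 fold change was 2.66 ± 0.16 (SE), edgeR adjusted p = 2.5e-06, and 2.12 with the no-gene share as covariate. *HSPB1*, the broadly expressed HSP27 that caps unfolding proteins and binds actin, was at 128, 161 and 159 CPM with GFP and 237, 349 and 415 CPM with *Esrrg*. All 3 *Esrrg* libraries were above the GFP libraries, at a log2 fold change of 1.16 ± 0.18 (SE), edgeR adjusted p = 0.000602. *HSPB8*, which works with BAG3 in the removal of misfolded proteins, rose by 0.84 on the log2 scale from 6.06, 7.2 and 6.67 CPM with GFP to 8.59, 12.8 and 14.2 CPM with *Esrrg*. *HSPB6* was low (41 to 93 counts) and overlapped between groups (log2 fold change 0.26), with 38.3% of its exon bases under other genes.

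The remaining cytosolic J-domain genes went both ways. *DNAJC5*, the cysteine string protein of synaptic vesicles, was at 54.4, 60.7 and 59.1 CPM with GFP and 95.4, 116 and 126 CPM with *Esrrg*, without overlap, at a log2 fold change of 0.95 ± 0.12 (SE), edgeR adjusted p = 0.000138. It was among the 8 genes called higher with the covariate, together with *HSPB7*, *HSPA12B*, *HSPA5* and 4 mitochondrial genes, but not after the GC and length correction. *DNAJC12*, a co-chaperone of aromatic amino acid hydroxylases, rose by 0.80 and *DNAJC8*, a splicing-associated protein, by 0.77 on the log2 scale. *HSPA12B*, a distant HSP70 relative known from endothelium, rose by 0.89 at a level of only 44 to 120 counts. *DNAJC13*, a large endosomal protein that recruits HSC70 to membranes, fell in edgeR, from 209, 184 and 185 CPM with GFP to 142, 119.5 and 115 CPM with *Esrrg*. Its groups did not overlap, and the log2 fold change was -0.62 ± 0.11 (SE), edgeR adjusted p = 0.00121, but in DESeq2, with the covariate and after the GC and length correction it was not called. *DNAJC24*, which acts in the synthesis of diphthamide, and *DNAJB4* had log2 fold changes of -0.48 and -0.34, past the adjusted p but not the fold. *DNAJC2* and *HSPA14*, chaperones at the ribosome, had log2 fold changes of -0.0024 and 0.0097 with overlapping groups. The other 11 tested cytosolic genes were not called, with log2 fold changes from -0.32 for *DNAJA4* to 0.55 for *DNAJC6*, the auxilin that uncoats clathrin vesicles. They were *DNAJA4*, *DNAJC21*, *DNAJC9*, *HSPA4L*, *HSPA12A*, *DNAJB2*, *DNAJC17*, *HSPA2*, *DNAJC7*, *DNAJB5* and *DNAJC6*, and in *DNAJC9* 56.5% and in *DNAJC17* 27.9% of the exon bases lie under other genes.

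The CCT chaperonin is a double ring in which 8 different subunits each hold a fixed place, and its known substrates include actin and tubulin. *CCT3* (ENSG00000163468.15, GRCh38 chr1:156308968-156367873, minus strand) was at 244, 303 and 284 CPM in the GFP libraries and at 471, 717 and 733 CPM in the *Esrrg* libraries, a log2 fold change of 1.21 ± 0.17 (SE), edgeR adjusted p = 0.00029. *CCT7* went from 200.3 ± 23.9 to 459 ± 109 CPM (mean ± SD, n = 3 each), a log2 fold change of 1.20 ± 0.17 (SE), edgeR adjusted p = 0.000347. *CCT5* and *CCT2* rose by 0.84 and 0.80 on the log2 scale, and 30.8% of the exon bases of *CCT5* lie under another gene. The other 4 ring subunits were not called, with log2 fold changes of 0.54 for *TCP1*, 0.52 for *CCT4*, 0.30 for *CCT6A* and 0.20 for *CCT8*. In all 8 subunits the groups of libraries did not overlap and *Esrrg* was higher, while 70.3% of the protein-coding genes separated in either direction. But with library size as the only scaling *CCT6A* and *CCT8* turned to -0.03 and -0.13, and with the covariate *CCT8* turned to -0.04. *CCT6B*, a paralogue of *CCT6A* known from testis, had 69 to 77 counts in the GFP libraries and 40 to 49 in the *Esrrg* libraries and fell in edgeR, at a log2 fold change of -0.79 ± 0.21 (SE), edgeR adjusted p = 0.0101. It was not called with the covariate or after the GC and length correction.

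The proportions of the subunits, not corrected for GC content, differed between the groups. Expressed per kilobase of exon, *CCT3* made up 18.0, 20 and 19.3% of the summed level of the 8 subunits in the GFP libraries and 23.9, 25.5 and 26.6% in the *Esrrg* libraries. *CCT7* went from a mean share of 14.9 to 19.6%. *CCT6A* and *CCT8* went from 16.7 to 11.9% and from 8.97 to 5.99%, while the share of *CCT2* was 11.1 and 11.2%. The ratio of the highest to the lowest subunit level per kb was 2.26 to 2.54 in the GFP libraries and 3.57, 4.28 and 4.99 in *Esrrg* replicates 2, 3 and 4. The ratio of *CCT3* to *CCT8* counts within a library went from 2.47 ± 0.27 to 4.95 ± 0.82 (SD, n = 3 each, exact permutation test, two-sided, p = 0.1, adjusted 0.12). GC content was 49.0 and 51.1% for *CCT3* and *CCT7*, and 41.2 and 41.4% for *CCT6A* and *CCT8*. After the GC and length correction *CCT3* and *CCT8* had log2 fold changes of 1.11 and 0.40, and with the covariate 0.56 and -0.04. The part of GC content in the shares was not tested. With the no-gene share as covariate edgeR called 0 of the 9 chaperonin genes (4 at an unadjusted p under 0.05). In that fit *CCT3* (0.56), *CCT7* (0.52) and *CCT5* (0.35) had edgeR adjusted p values of 0.00033, 0.00083 and 0.0129. These genes missed the call on the size of the fold and not on the p. After the GC and length correction edgeR called 6 chaperonin genes, and DESeq2 without the covariate called 6 higher.

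**Figure D3:**
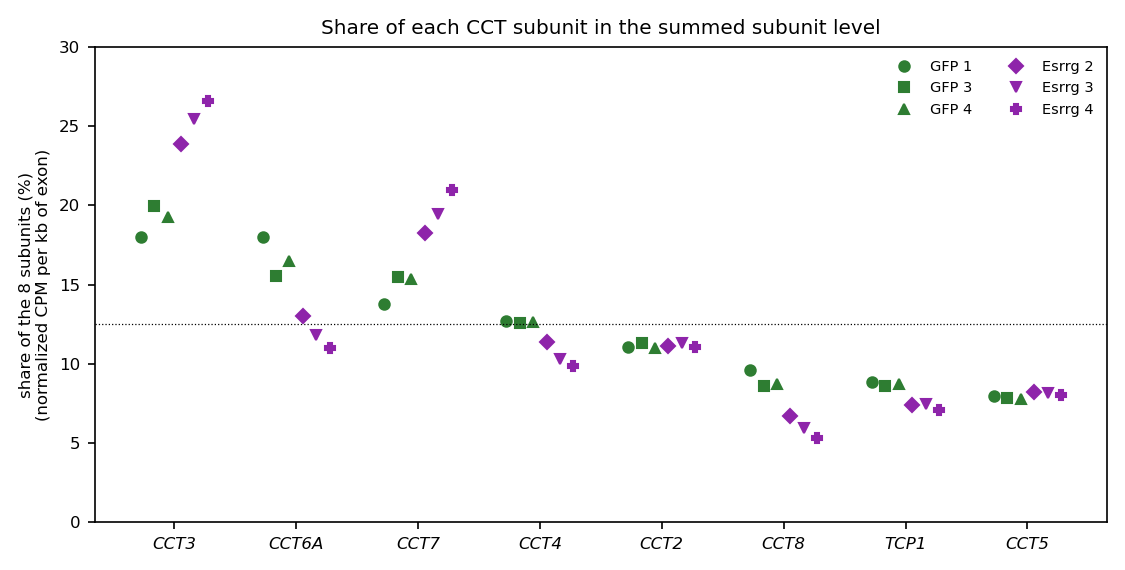
Share of each CCT subunit (percent of the summed normalized CPM per kb of exon of the 8 subunits, y axis) in each library. The dotted line marks equal shares. *CCT3* and *CCT7* lie higher in the *Esrrg* libraries, *CCT6A*, *CCT4*, *CCT8* and *TCP1* lie lower, and *CCT2* and *CCT5* lie close to level.

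In the ER, the HSP70 of the lumen rose, while the call of its HSP90 depended on the fit. *HSPA5* (ENSG00000044574.8, GRCh38 chr9:125234853-125241382, minus strand) encodes BiP, which holds new secretory proteins and keeps the sensors of ER stress silent. It was at 386, 428 and 394 CPM with GFP and 707, 909.9 and 891 CPM with *Esrrg*, with no overlap. The log2 fold change was 1.05 ± 0.13 (SE), edgeR adjusted p = 0.000127, and 0.70 with the covariate. *HSP90B1*, which encodes GRP94, was at 487, 534 and 463 CPM with GFP and 614, 714 and 690.5 CPM with *Esrrg*, a log2 fold change of 0.44 ± 0.11 (SE), edgeR adjusted p = 0.00798, with no overlap and a fold under the cutoff. After the GC and length correction *HSP90B1* was called higher, at 0.77 on the log2 scale. The ratio of *HSPA5* to *HSP90B1* counts was 0.793, 0.802 and 0.851 in the GFP libraries and 1.15, 1.27 and 1.29 in the *Esrrg* libraries (exact permutation test, two-sided, p = 0.1, adjusted 0.12, n = 3 each).

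The ER stress response element is the motif known for the action of ATF6. Its letters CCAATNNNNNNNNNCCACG, searched on both strands, were present in 2 of the 73 chaperone windows, *HSPA5* and *HSP90B1*, and in 0.0806% of all windows. The windows, with the element in capitals, were chr9:125241294-125241593, minus strand, for *HSPA5* and chr12:103930160-103930459, plus strand, for *HSP90B1*:
HSPA5: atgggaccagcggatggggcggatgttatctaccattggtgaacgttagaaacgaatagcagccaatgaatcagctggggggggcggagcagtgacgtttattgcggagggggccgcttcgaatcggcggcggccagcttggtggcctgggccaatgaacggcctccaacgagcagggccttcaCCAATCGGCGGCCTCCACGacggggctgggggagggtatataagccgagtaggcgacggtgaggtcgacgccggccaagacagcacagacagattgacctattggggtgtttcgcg
HSP90B1: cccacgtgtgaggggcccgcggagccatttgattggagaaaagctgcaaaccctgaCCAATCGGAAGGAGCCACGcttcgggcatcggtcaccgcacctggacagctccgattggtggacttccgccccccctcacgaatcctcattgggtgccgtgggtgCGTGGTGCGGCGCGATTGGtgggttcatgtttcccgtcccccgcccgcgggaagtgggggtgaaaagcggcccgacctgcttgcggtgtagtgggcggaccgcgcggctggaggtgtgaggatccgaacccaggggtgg
An exact match to these letters lay in 2 places in the *HSP90B1* window and in 1 place in the *HSPA5* window. Partial matches were not searched, so the number of elements in each promoter is not given.

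The J-domain partners of BiP were near or below the fold cutoff in the main test. *DNAJB9* (ERdj4) and *DNAJB11* (ERdj3), both known targets of the ER stress response, had log2 fold changes of 0.54 and 0.55, with no overlap and adjusted p values of 0.0047 and 0.000958 in edgeR, just under the fold cutoff. Both were called higher by DESeq2 (0.64 for each) and after the GC and length correction (0.82 and 0.85). *DNAJC3* (P58IPK), *DNAJC10* (the reductase ERdj5) and *DNAJB14* had negative log2 fold changes of -0.22, -0.32 and -0.38, none of them called. Their signs were not stable, since *DNAJC3* and *DNAJC10* were at 0.03 and 0.17 after the GC and length correction and *DNAJB14* at 0.11 with the covariate, while with library size as the only scaling *DNAJC10* and *DNAJB14* were called lower (-0.62 and -0.68). *DNAJB12*, a membrane protein of the ER whose closest relative is *DNAJB14*, rose by 0.81 on the log2 scale, from 34.4, 41.0 and 36.9 CPM with GFP to 56.8, 64.8 and 75.6 CPM with *Esrrg*. *DNAJC18* rose by 0.80, and *DNAJC14* by 0.63, although 58.1% of the exon bases of *DNAJC14* lie under other genes and its call was lost without *Esrrg* replicate 4. Neither *DNAJB12* nor *DNAJC14* was called after the GC and length correction (0.48 and 0.40). No ER chaperone was called lower by edgeR in the main test or by DESeq2. In the main test *DNAJC10* and *DNAJB14* passed the adjusted p downward (0.0262 and 0.0489 in edgeR) but not the fold. There 4 ER genes were lower at an unadjusted p under 0.05. *HSPA13*, *DNAJC1* and *DNAJC16* were not called, at -0.22, 0.17 and -0.11 on the log2 scale.

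In mitochondria, 7 of the 8 tested chaperone genes rose. *HSPA9*, the matrix HSP70 that also pulls proteins through the inner membrane, was at 209, 225 and 208 CPM in the GFP libraries and 361, 526 and 508 CPM in the *Esrrg* libraries. All *Esrrg* libraries were above all GFP libraries, and the log2 fold change was 1.12 ± 0.14 (SE), edgeR adjusted p = 0.000179. The HSP90 of the matrix, *TRAP1* (ENSG00000126602.11, GRCh38 chr16:3651639-3717553, minus strand), was at 31.1, 34.5 and 31.6 CPM with GFP and 62.6, 85.5 and 86.0 CPM with *Esrrg*, again without overlap. Its log2 fold change was 1.27 ± 0.13 (SE), edgeR adjusted p = 5.86e-05, with 28.5% of its exon bases under other genes. With the covariate, *HSPA9* and *TRAP1* had log2 fold changes of 0.60 and 0.81 and were still called.

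*HSPD1* and *HSPE1* encode HSP60 and HSP10, the chaperonin and its lid, and lie head to head on chromosome 2. *HSPD1* was at 379, 403 and 392 CPM with GFP and 583, 793 and 716 CPM with *Esrrg*, a log2 fold change of 0.83 ± 0.13 (SE), edgeR adjusted p = 0.000464. *HSPE1* was at 18.6, 23.8 and 18.6 CPM with GFP and 39.4, 64.4 and 52.8 CPM with *Esrrg*, a log2 fold change of 1.36 ± 0.17 (SE), edgeR adjusted p = 0.00017. Both were higher in every *Esrrg* library. *HSPD1* was not called with the covariate (0.47) or with library size as the only scaling (0.50), while *HSPE1* was called in both (0.80 and 1.02). The ratio of *HSPD1* to *HSPE1* counts within a library was 20.4, 16.9 and 21 with GFP and 14.8, 12.3 and 13.6 with *Esrrg* (exact permutation test, two-sided, p = 0.1, adjusted 0.12, n = 3 each). Of the exon bases of *HSPE1*, 17.9% lie under other genes. The window of *HSPE1* (chr2:197500129-197500428, plus strand) shares the 204 bases in capitals with that of *HSPD1* on the other strand (chr2:197500225-197500524):
HSPE1: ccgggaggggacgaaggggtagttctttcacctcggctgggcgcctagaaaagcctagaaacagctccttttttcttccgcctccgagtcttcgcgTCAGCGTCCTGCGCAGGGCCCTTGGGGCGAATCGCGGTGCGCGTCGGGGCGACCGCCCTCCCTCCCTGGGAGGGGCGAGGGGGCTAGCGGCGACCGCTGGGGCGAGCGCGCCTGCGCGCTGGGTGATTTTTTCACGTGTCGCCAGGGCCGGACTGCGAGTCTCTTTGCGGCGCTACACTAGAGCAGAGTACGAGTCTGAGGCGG
The shared bases are chr2:197500225-197500428, so that 1 stretch of sequence belongs to the start-site windows of both genes of the HSP60 and HSP10 pair.

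The element bound by ERR receptors (TNAAGGTCA, both strands) was present in 0 of the 73 chaperone windows and in 0.963% of all windows. Its core alone (AAGGTCA, which every full element also contains) was present in 3 chaperone windows, *TRAP1*, *DNAJB13* and *DNAJC28*, and in 3.97% of all windows. Both shares are low over all windows, so the small counts here say little. Sites outside the windows were not searched. The *TRAP1* window (chr16:3717475-3717774, minus strand) is shown with this match in capitals, 197 to 191 bases before the start:
TRAP1: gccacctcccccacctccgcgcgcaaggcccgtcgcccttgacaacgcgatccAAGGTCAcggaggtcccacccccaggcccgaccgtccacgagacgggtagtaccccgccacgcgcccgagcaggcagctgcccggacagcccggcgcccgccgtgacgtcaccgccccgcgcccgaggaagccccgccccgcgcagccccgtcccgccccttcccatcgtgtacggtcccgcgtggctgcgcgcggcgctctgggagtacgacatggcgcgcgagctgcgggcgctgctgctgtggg
Of the 3 genes *TRAP1* alone was tested.

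Of the J-domain genes of mitochondria, *DNAJC11*, a protein linked to the contact sites of the inner membrane, was at 40.9, 47.8 and 47.4 CPM with GFP and 82.8, 104 and 103 CPM with *Esrrg*, a log2 fold change of 1.09 ± 0.12 (SE), edgeR adjusted p = 7.13e-05. *DNAJC30*, a protein of the inner membrane, and *DNAJC15*, which sits at the import motor, rose by 1.12 and 0.78 on the log2 scale. Neither *DNAJC30* nor *DNAJC15* was called with the covariate (0.54 and 0.24). *DNAJC19*, the other J-domain gene of the motor here, had a log2 fold change of 0.57 ± 0.14 (SE), edgeR adjusted p = 0.00687, just under the fold cutoff. No tested mitochondrial chaperone gene had overlapping groups, and the groups also lay apart for 70.3% of the protein-coding genes. *HSPD1* had the highest level per kilobase of exon at this site, 51.3 CPM per kb with GFP and 91.4 CPM per kb with *Esrrg*. The ratio of *HSPA9* to *HSPA8* counts, the matrix against the cytosolic HSP70, was 0.223 ± 0.016 and 0.241 ± 0.017 (SD, n = 3 each), with overlapping groups (exact permutation test, two-sided, p = 0.3, adjusted 0.3).

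**Figure D4:**
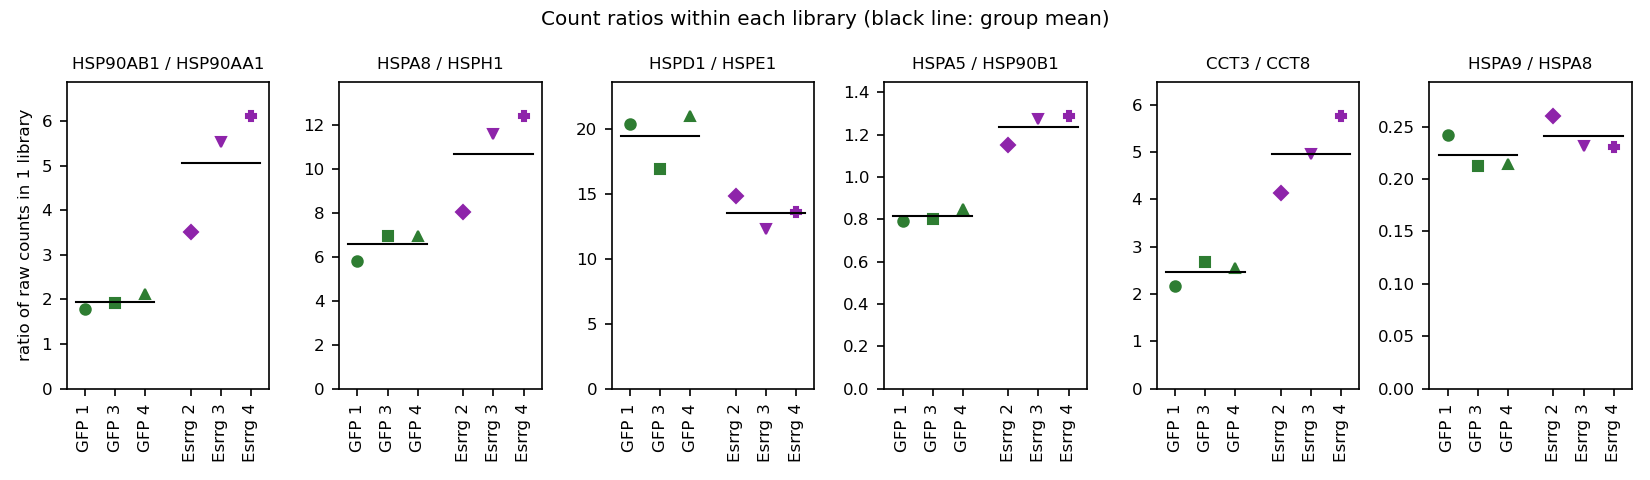
Ratio of the raw counts of 2 chaperone genes within each library (y axes from 0, black lines for group means). The groups lie apart in 5 of the 6 panels, with *HSP90AB1* over *HSP90AA1* moving from 1.94 to 5.05 on average, and overlap for *HSPA9* over *HSPA8*.

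Of the unassigned genes, *DNAJC4* was called higher (0.70 ± 0.14 (SE), edgeR adjusted p = 0.00229), but not without *Esrrg* replicate 4. It was not called after the GC and length correction (0.25), with the covariate (0.18) or with library size as the only scaling (0.36). *DNAJC25*, *DNAJC27*, *DNAJB7* and *DNAJC22* were not called, with log2 fold changes of 0.32, -0.22, -0.26 and -0.38.

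The partners of these chaperones, which the rule left out, were read from lists of known co-chaperones and folding factors. For each of these lists, here and below, the share called higher among the tested protein-coding genes was 25.9%. Of 19 cytosolic co-chaperones, 18 were tested and 9 rose (median log2 fold change 0.66). The 9 include *BAG6*, at only 11 to 55 counts and with 82.1% of its words also on alternate contigs. Some partners of HSP90 were among them. *FKBP4* rose by 1.47 and *STIP1*, the adaptor between HSP70 and HSP90, by 1.23 on the log2 scale. *AHSA1*, the activator of the HSP90 ATPase, rose by 1.20 and *CDC37*, the kinase adaptor, by 1.18. Other partners of HSP90 on this list, *PTGES3*, *PPID* and *FKBP5*, had 0.48, 0.44 and 0.21 and were not called in the main test. *BAG1*, an exchange factor of HSP70, was at 21.2, 22.7 and 22.5 CPM with GFP and 51.0, 69.1 and 69.0 CPM with *Esrrg* (log2 fold change 1.51 ± 0.13 (SE), edgeR adjusted p = 2.14e-05). *BAG3*, a target of HSF1, had a log2 fold change of 0.17 ± 0.14 (SE), edgeR adjusted p = 0.35, with overlapping groups. *SUGT1*, also a partner of HSP90, had a log2 fold change of -0.55, short of the fold cutoff.

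Of the 4 genes for heat shock factors and their binding protein, *HSF1* was at 0 counts in all libraries although few of its words (0.691%) occur on alternate contigs, and the reason was not tested. *HSF2* had a log2 fold change of 0.06 ± 0.10 (SE), edgeR adjusted p = 0.64. *HSF4* fell, from 8.47, 5.88 and 7.12 CPM with GFP to 3.88, 2.88 and 3.55 CPM with *Esrrg* (-1.06 ± 0.18 (SE), edgeR adjusted p = 0.000929), and *HSBP1*, which binds HSF1, rose by 0.73 on the log2 scale. *HSBP1* was at 0.03 with the covariate and 0.39 when scaled by library size alone, not called in either, while *HSF4* was called lower in both. Of 9 genes that act with CCT, 8 were tested and 4 rose, such as the prefoldin subunit *PFDN2* at 1.13, while *PFDN5* and *VBP1* had 0.38 and 0.14.

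Of 12 ER folding factors, 10 were tested and 6 rose (median log2 fold change 0.68). *CALR*, the calcium-binding lectin chaperone, was at 522, 666 and 603 CPM with GFP and 1213, 1566 and 1707 CPM with *Esrrg* (1.32 ± 0.15 (SE), edgeR adjusted p = 0.000111). *SDF2L1* and *MANF*, both induced by ER stress and partners of BiP, rose by 1.66 and 1.58, and *PDIA4* by 0.69 on the log2 scale, while *PDIA3* had 0.45. *CANX* and *HYOU1* had 4 and 2 counts over all 6 libraries, and the reason was not tested. Of 7 mitochondrial co-chaperones and proteases, 4 rose: the protease *LONP1* rose by 1.52, the protease subunit *CLPP* by 1.35, *GRPEL1*, the exchange factor of HSPA9, by 1.06 on the log2 scale, and *CLPB*. *GRPEL2* and *CLPX*, close relatives or partners of these, had -0.06 and 0.029. With the no-gene share as covariate the numbers called higher were 4 of 18 cytosolic co-chaperones, 3 of 10 ER factors, 1 of 7 mitochondrial genes and 0 of 8 CCT partners (1 higher at an unadjusted p under 0.05 in edgeR). Of the CCT partners, *PFDN2* had 0.42 there (edgeR adjusted p = 0.0086) and *PDCL* -0.43 (edgeR adjusted p = 0.0136), both short of the fold cutoff. In that fit 9.48% of the tested protein-coding genes were called higher.

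**Figure D5:**
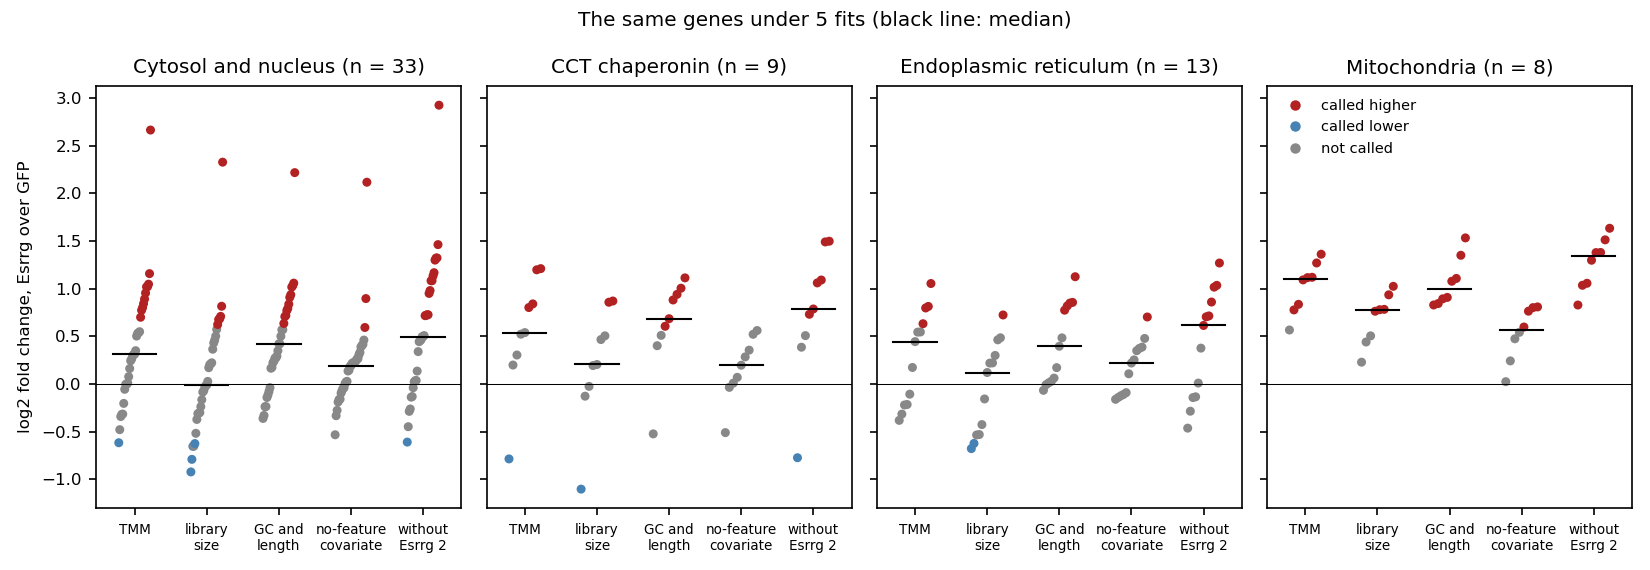
Log2 fold change (y axis) of each tested chaperone gene under 5 fits (x axis) in 1 panel per site, with black lines for the medians. With the share of reads assigned to no gene as covariate, the medians are 0.19 in the cytosol, 0.20 for CCT, 0.22 in the ER and 0.57 in mitochondria, each lower than in the TMM fit.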

How the data were processed

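RNA from 6 SH-SY5Y libraries was sequenced with a directional, ribosome-depleted protocol. According to the submitters' processing notes, the tools were CASAVA, Trim Galore 0.6.7, STAR 2.7.9a, HTSeq 0.11.3 and DESeq2, with build GRCh38. The annotation release and the strand setting of the counting are not given in the sources used here. Shares of exon bases under other genes therefore count genes on either strand. On the same strand the share is 0% for *CCT5*, *DNAJC9*, *DNAJC17* and *HSPB6*. It is 1.25% for *TRAP1*, 10.5% for *HSPE1* and 23.2% for *DNAJC14*. The authors deposited raw HTSeq counts per gene for 67060 identifiers, of which 60419 matched GENCODE release 44 without their version. Groups and replicate numbers came from the labels.

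The counts went into edgeR 4.0.16 in R 4.3.3 (filterByExpr, TMM scaling, quasi-likelihood test over all 24500 tested genes, Benjamini-Hochberg adjustment). A call needed an adjusted p below 0.05 and a 1.5-fold change. Normalized CPM use TMM factors, log fold changes a prior count of 2, and values per kb the exon bases of all transcripts, which are an upper bound of what is transcribed. SE is the absolute log2 fold change over the root of F. The members, sites, lists and tests were chosen with earlier results of these data known.

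Named genes are the main chaperones of each site, the 8 ring subunits, up to 3 called members per direction and site with a mean of at least 50 counts, the highest member per kb at each site, members that overlap other genes or failed the filter, and *ESRRG*. The other tested members are named for completeness and pathway genes were picked for their roles after values had been seen. Alternatives were DESeq2 1.42.0, RLE or library-size scaling, no filter, at least 10 counts in every library, no or a 2-fold cutoff, each library left out, protein-coding genes only, the replicate block, a GC and length correction (mgcv 1.9.3), and the share of reads assigned to no gene as a covariate. The fit was tested on simulated data. Promoter windows came from RefSeq, and all letters were searched on both strands. Tables and plots used Python 3.11.15.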

Additional observations from a re-analysis of the deposited data

How the results depend on the processing

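Counts of called genes are given first, then single genes whose sign turned. Against 27 chaperone genes called higher, 14 were called with library size as the only scaling, 13 with a 2-fold cutoff and 8 with the share of reads assigned to no gene as covariate. Against 2 called lower, the counts were 8, 0 and 0 in these fits and 7 without a fold cutoff. They were 1 with DESeq2 or RLE size factors and 0 after GC and length correction, blocked by replicate number or not. More genes were called higher with DESeq2 (36), without a fold cutoff (40) and after GC and length correction (31). The 36 were 15 cytosolic, 6 chaperonin, 6 ER, 8 mitochondrial and 1 unassigned. The median log2 fold change of the protein-coding genes was 0.22 in DESeq2 and 0.12 in the main fit. In the cytosolic group (11 higher, 1 lower), library size gave 6 and 4, no fold cutoff 17 and 4, the 2-fold cutoff 5 and 0 and the covariate 3 and 0, while the lower count was 2 among protein-coding genes only and 0 with DESeq2, RLE or after GC and length correction, blocked or not. Chaperonin calls (4 higher, 1 lower) were 2 higher with library size, 7 without a fold cutoff, 2 higher and 0 lower with the 2-fold cutoff, 0 and 0 with the covariate, and 0 lower with the GC and length correction, where the blocked fit gave 7 higher. ER calls (4 higher, 0 lower) were 1 and 2 with library size, 7 and 2 without a fold cutoff, 1 higher with the 2-fold cutoff and 1 higher with the covariate. Mitochondrial calls (7 higher) were 4 with the covariate. The cause of these differences was not tested.

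Leaving out 1 library at a time gave 26 to 37 chaperone genes called higher and 0 to 2 lower, with 11 to 15 and 0 to 1 in the cytosol, 4 to 6 and 0 to 1 for the chaperonin, 4 to 7 and 0 to 0 in the ER and 7 to 8 and 0 to 0 in mitochondria. The ER count of 7 came without *Esrrg* replicate 2. Neither gene that fell was called without *Esrrg* replicate 3 or without GFP replicate 1, and *DNAJC13* was not called without *Esrrg* replicate 4. Deviations of the same-numbered replicates 3 and 4 from their group means had r = 0.075 and -0.00010 across genes. Pairs with unlike numbers had r from -0.13 to 0.14. With 3 libraries per group these values cannot show whether the replicates were paired. With the replicate block, 33 chaperone genes were called higher and 2 lower.

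Genes that changed sign were called in neither fit. With library size alone, values were *HSPA2* -0.017, *HSPH1* -0.010, *DNAJC17* -0.036, *HSPB6* -0.070, *DNAJA1* -0.085, *DNAJB2* -0.17, *HSPA12A* -0.24, *HSPA14* -0.30, *CCT6A* -0.025, *CCT8* -0.13, *DNAJC1* -0.16, *DNAJC25* -0.0020, *HSF2* -0.26, *BAG3* -0.17, *VBP1* -0.18 and *CLPX* -0.29. With the GC and length correction they were *DNAJC17* -0.039, *HSPB6* -0.11, *DNAJB2* -0.24, *DNAJC2* 0.27, *HSPA4L* 0.35, *DNAJC9* 0.17, *DNAJC21* 0.16, *DNAJC1* -0.067, *DNAJC16* 0.012, *HSPA13* 0.061, *DNAJC3* 0.028, *DNAJC10* 0.17, *DNAJB7* 0.048, *BAG3* -0.23 and *GRPEL2* 0.17, and with the replicate block added *DNAJC17* -0.058, *HSPB6* -0.20, *DNAJB2* -0.30, *DNAJC2* 0.22, *HSPA4L* 0.30, *DNAJC9* 0.17, *DNAJC21* 0.23, *DNAJC1* -0.037, *DNAJC16* 0.060, *HSPA13* 0.14, *DNAJC3* 0.073, *DNAJC10* 0.24, *DNAJB7* 0.14, *BAG3* -0.21 and *GRPEL2* 0.22. With the covariate they were *DNAJC17* -0.040, *HSPB6* -0.16, *DNAJA1* -0.045, *DNAJB2* -0.095, *DNAJC2* 0.19, *HSPA4L* 0.39, *DNAJC9* 0.028, *CCT8* -0.036, *DNAJC1* -0.16, *DNAJB14* 0.11, *HSF2* -0.14, *BAG3* -0.35, *VBP1* -0.026 and *CLPX* -0.080. Protein-coding genes only gave *HSPA12A* -0.047, *HSPA14* -0.11, *HSF2* -0.064 and *CLPX* -0.097, the minimum of 10 counts in every library *HSPA14* -0.018, the replicate block alone *HSPA14* -0.11, DESeq2 *DNAJC2* 0.086, *HSPA4L* 0.083, *DNAJC9* 0.035 and *GRPEL2* 0.035, RLE *DNAJC2* 0.073, *HSPA4L* 0.070, *DNAJC9* 0.021 and *GRPEL2* 0.021 and no filter *DNAJC2* 0.0043 and *HSPA4L* 0.0029. With single libraries left out, the values ranged from -0.028 to 0.073 for *HSPA14*, from -0.062 to 0.097 for *DNAJC2*, from -0.060 to 0.11 for *HSPA4L*, from -0.078 to 0.022 for *DNAJC9*, from -0.13 to 0.0092 for *DNAJC16*, from -0.11 to 0.066 for *GRPEL2* and from -0.0032 to 0.17 for *CLPX*. Genes with few counts, such as *HSPA6* and *HSPB9*, could not be compared at this depth.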

Other observations

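Sorted by family instead of by site, the J-domain genes made up most of the tested chaperone genes. For each count below, the share called higher among the tested protein-coding genes was 25.9%, and nothing is read as particular to a family. Of 25 tested DNAJC genes, 9 were called higher and 1 lower by edgeR, with log2 fold changes from -0.62 to 1.12 and a median of 0.32. Of 10 tested DNAJB genes, 2 were called higher (*DNAJB1* and *DNAJB12*), with a median of 0.53, and of 3 tested DNAJA genes 1 was (*DNAJA2*), with a median of 0.24. Among the HSP70 genes, 4 of 10 were called higher (*HSPA9*, *HSPA5*, *HSPA8* and *HSPA12B*), with a median of 0.41. Of the 4 HSP90 genes, *TRAP1* and *HSP90AB1* were called higher and *HSP90B1* and *HSP90AA1* were not. Of the 4 tested small heat shock protein genes 3 were called higher, and the fourth, *HSPB6*, was at 41 to 93 counts.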
